A study of Mus musculus with 9 samples.

Results

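Rapamycin was given to BC3H1 cells at 100 nM for 24 h, and their transcripts were compared, gene by gene, with those of the same line given the solvent DMSO for 24 h. BC3H1 is a mouse line from a brain tumour with muscle-like properties, here the rapamycin-sensitive cells of the study, grown in DMEM with 20% fetal bovine serum. Each group had 3 Affymetrix Mouse 430 2.0 arrays, so that 6 of the study's 9 arrays were compared. The other arrays, of a line kept in 1 uM rapamycin after 6 months of culture in it, entered only the estimate of the spread. The genes were chosen by having a probe set with exactly 1 gene symbol. Of 18193 such genes, 12715 were bright enough to be tested, each through its brightest probe set. Groups and array numbers came from the sample titles, and no label states that replicate arrays stand for separate cultures. The p-values then cover only array-to-array spread, possibly technical.

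Rapamycin binds the immunophilin FKBP12, and the pair docks on mTOR complex 1, a kinase that couples nutrients and growth factors to cell growth. The complex promotes protein synthesis through the S6 kinases and the 4E-BP proteins, supports ribosome production and nucleotide and amino acid synthesis, and restrains autophagy and the lysosomal transcription factors TFEB and TFE3. A second complex, built around RICTOR, phosphorylates AKT, which in turn holds FoxO transcription factors out of the nucleus. In many cultured cells rapamycin slows passage from G1 into S phase.

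The array values are linear intensities, called signals here, analysed as log2(signal + 16). A change is the difference between the group means on that scale, rapamycin minus DMSO, and the value after ± is its standard error (n = 3 arrays per group). Adjusted p-values are from the limma fit of all 12715 genes, with the Benjamini-Hochberg method, and a gene was called at an adjusted p under 0.05. "Rose" and "fell" are used only for called genes. Because of the added 16, changes of dim genes are understated, and signals of different genes are not comparable. In bulk RNA of this kind, fewer cells that express a gene and less RNA per cell cannot be told apart.

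The median signal was 36.8 to 44.3 on 5 of the 6 arrays and 66.2 on the third DMSO array, where 17.4% of probe sets lay below 16 against 29.3% to 32.6% on the others. Leaving that array out gave 2678 genes called higher and 2036 lower, and keeping it gave 2592 and 1931. Correlations over genes were 0.955 to 0.980 among DMSO arrays, 0.976 to 0.980 among rapamycin arrays and 0.920 to 0.953 between the groups. The 3-prime to 5-prime difference of the Actb control probe sets was 0.17 ± 0.008 (SD, n = 3) in DMSO and 0.19 ± 0.04 in rapamycin (log2, exact permutation p = 0.4). For Gapdh it was -0.31 ± 0.016 and -0.36 ± 0.04, with all rapamycin arrays lower (exact permutation p = 0.1, the smallest that 3 against 3 arrays allow).

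The labelled cell type was set against marker genes. Of 9 smooth muscle markers, 7 had signals above 100 on all 6 arrays, among them the actin Acta2 and the actin-binding Tagln, while the smooth muscle myosin Myh11 lay at 4.80 to 26.1. Of 13 skeletal muscle markers 4 passed 100 on all arrays, among them the myogenic factor Myf5 and the acetylcholine receptor subunit Chrna1, and Myod1 and Myog were at most 41.2. Fibroblast markers passed in 6 of 9 cases, among them Vim and the collagen Col1a2. No endothelial marker of 8 and no oligodendrocyte marker of 7 passed 100 on all arrays, and 1 or 2 did in the neuron, astrocyte, microglia and epithelial lists. The summed fibroblast signal was 58506 to 72423 in DMSO and 76636 to 88614 in rapamycin, where 3 of its markers were called, Col1a2 among them (0.50 ± 0.10). The summed astrocyte signal was lower in rapamycin (4360 to 4430 in DMSO and 3130 to 3806 in rapamycin), most of it from Gja1, which fell (-0.43 ± 0.09), while the astrocyte marker Slc1a3 rose. The epithelial sum was also lower (462 to 756 and 321 to 411), with a fall of Epcam (-1.21 ± 0.38), a call lost when the third DMSO array was left out (adjusted p = 0.0894) or the first or the third rapamycin array (0.0720 and 0.0585). The sums of the other 6 lists overlapped between the groups, at 26346 to 35118 and 34408 to 34904 for smooth muscle. The part of a shift in cell makeup in the results below was not tested.

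Rapamycin changed a large share of the transcripts, and the falls were deeper than the rises. Of 12715 genes, 4523 (35.6%) were called, 2592 higher (20.4%) and 1931 lower (15.2%). The rises were mostly small. Of the genes that rose, 265 (2.08% of those tested) did so at least 2-fold and 3 at least 4-fold, whereas of those that fell, 503 (3.96%) did so at least 2-fold and 132 at least 4-fold. Changes of at least 2-fold in either direction thus made up 6.04% of the genes tested. With 64 in place of 16 added to the signal, 122 rises were at least 2-fold. The median change was 0.53 among genes called higher, -0.60 among genes called lower and 0.03 over all genes. For 4313 called genes (33.9% of those tested) the 3 arrays of one group all lay above the 3 of the other, and so they did for 1179 genes (9.27%) that were not called. Calls depended on signal. Of 4 equal bands of genes by signal, the dimmest had 2.23% called higher and 2.45% lower, against 31.0% and 27.1% in the brightest.

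**Figure D1:**
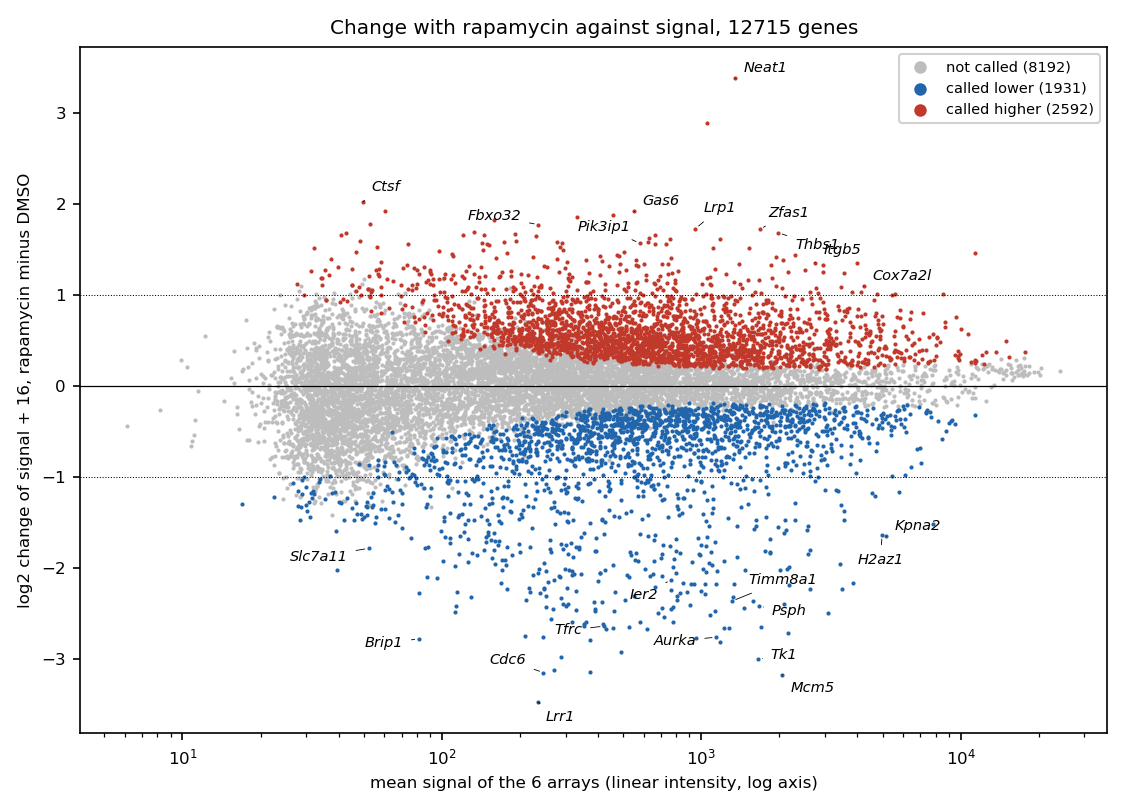
Change with rapamycin (log2 of signal + 16, rapamycin minus DMSO) against the mean signal of the 6 arrays (log axis) for 12715 genes, one point per gene. Called genes are red (2592 higher) or blue (1931 lower), others grey, and dotted lines mark a 2-fold change. The blue points reach below -3, whereas few red points pass 2, and few points with a signal under 50 are called.

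The genes were read through 72 lists of 2701 genes, grouped by role, of which 2335 genes were tested. The lists for cell division fell together: of 398 genes tested, 304 fell and 16 rose, with a median change of -1.28, and 223 of the falls were at least 2-fold. Among 877 genes for growth and biosynthesis 336 fell and 131 rose, with a median of -0.13. The other 6 groups of lists leaned upward. Catabolic genes (201 tested) rose in 99 cases and fell in 8, matrix genes (185) in 95 and 13, signalling genes (210) in 80 and 13, and immune genes (140) in 59 and 5. Muscle genes (69) rose in 21 cases and fell in 4, and the remaining lists (308 genes) in 92 and 51. These counts stand against 20.4% higher and 15.2% lower over all genes.

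**Figure D2:**
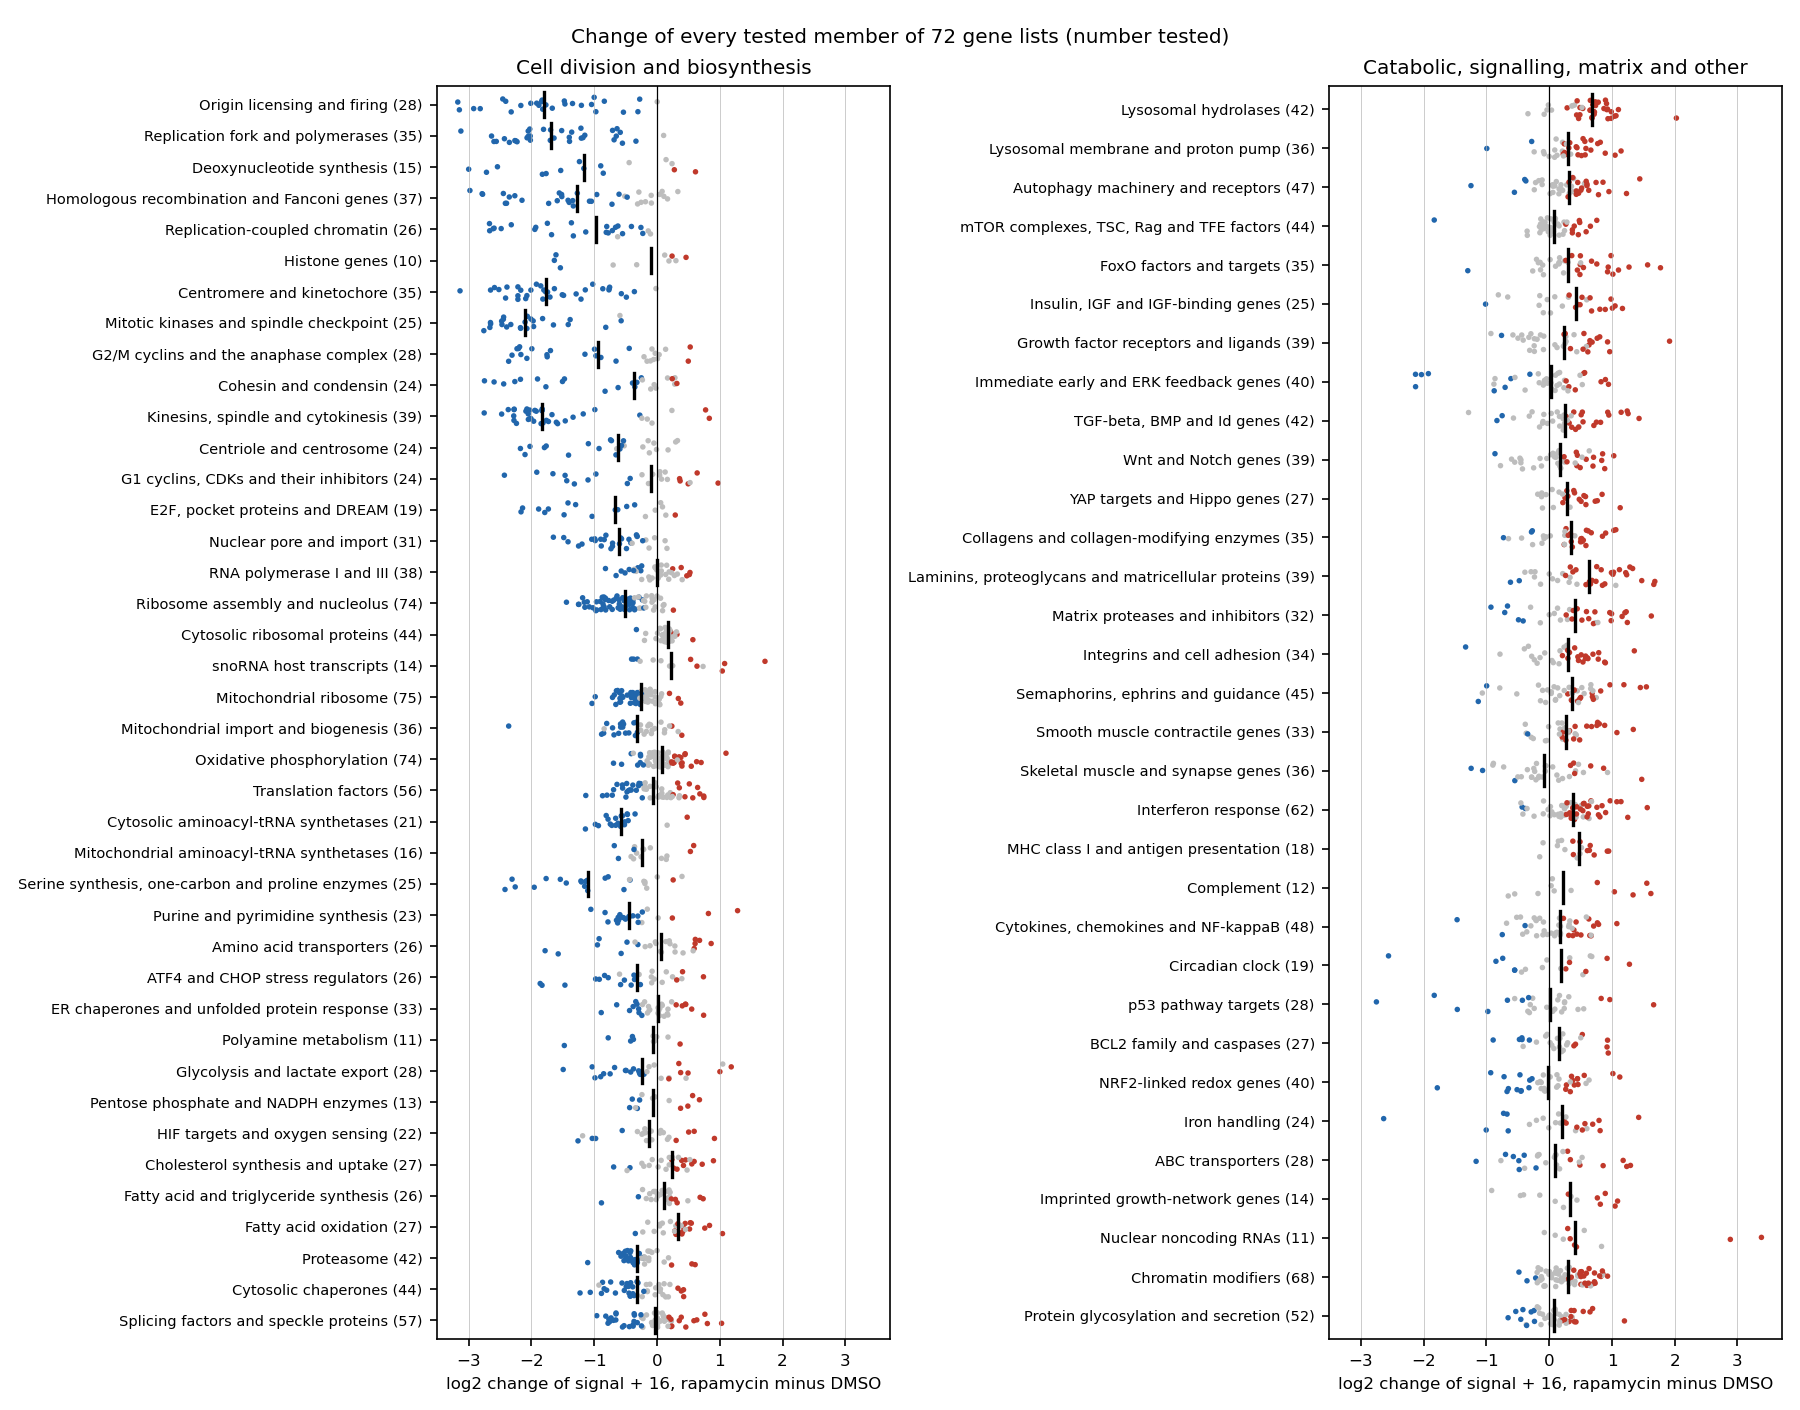
Change of every tested member of 72 lists (log2 of signal + 16, rapamycin minus DMSO), one point per gene, red where called higher, blue where called lower and grey where not called. Black bars are list medians, and numbers in brackets are genes tested. The replication and mitosis lists on the left lie almost wholly below 0, and the lysosomal hydrolases (median 0.69) lie above 0.

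**Figure D3:**
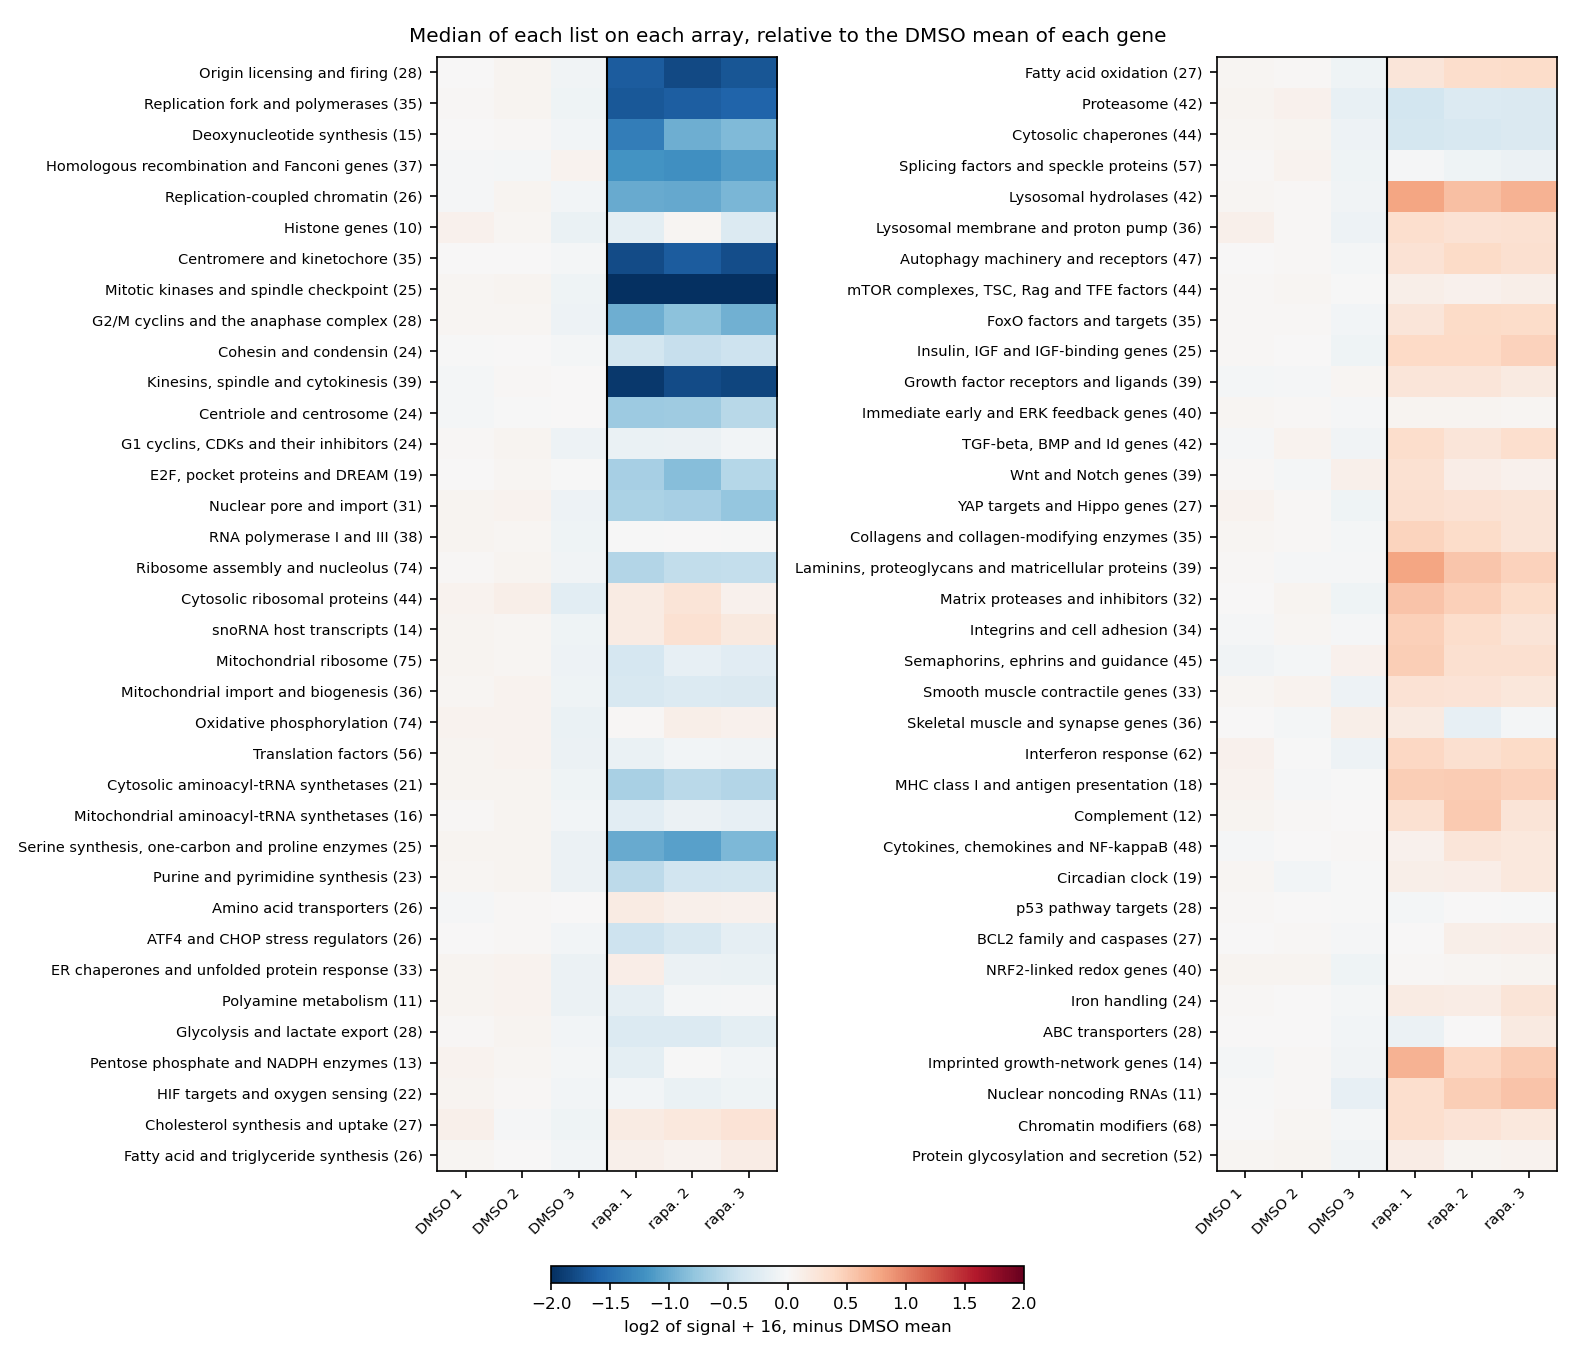
Median of each list on each of the 6 arrays, after the DMSO mean of each gene was subtracted (log2 of signal + 16, colour scale from -2 to 2), with the number of genes in brackets. The 3 rapamycin arrays are alike in most lists of cell division genes, with medians of -1.66, -1.81 and -1.71 for origin licensing. They differ more for deoxynucleotide synthesis (-1.38, -0.98 and -0.89) and histone genes (-0.19, 0.04 and -0.27). The DMSO arrays stay near 0.

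Genes that prepare and fire replication origins fell almost without exception. Of 28 tested, 27 fell, 22 of them at least 2-fold, with a median change of -1.80. The helicase subunit Mcm5 had signals of 3778, 3852 and 3499.6 in DMSO and 378, 412 and 399 in rapamycin, a change of -3.17 ± 0.08 (adjusted p = 6.52e-14). Every rapamycin array lay far below every DMSO array. Gins1, part of the GINS complex that activates the helicase, read 873, 855 and 892 in DMSO and 88.3, 83.8 and 139.5 in rapamycin (-2.92 ± 0.13). The initiation factor Mcm10 fell by the same order (-2.46 ± 0.11, adjusted p = 8.37e-12), from 571, 569 and 562 in DMSO to 88.4, 87.5 and 94.9. The single member that was not called was Orc5, a subunit of the origin recognition complex. The Mcm5 promoter is shown because it holds an E2F motif, searched on both strands as TTTGGCGC, TTTCCCGC, TTTCGCGC or TTTGCCGC. Its capitals mark 2 overlapping matches, 153 and 149 bases before the start, in RefSeq's promoter sequence (assembly GRCm38.p6, chr8:75109259-75109558, plus strand, 250 bases before to 50 after the start).
Mcm5: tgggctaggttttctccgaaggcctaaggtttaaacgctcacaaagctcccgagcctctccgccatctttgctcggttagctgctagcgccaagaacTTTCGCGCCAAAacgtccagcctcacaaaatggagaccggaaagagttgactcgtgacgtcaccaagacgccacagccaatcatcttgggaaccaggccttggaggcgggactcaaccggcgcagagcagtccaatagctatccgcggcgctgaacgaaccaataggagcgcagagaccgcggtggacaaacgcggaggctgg

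The fork itself followed. Of 35 genes for polymerases, clamp loaders and fork protection, 34 fell, with a median of -1.70, and the other, topoisomerase I (Top1), was called higher where its probe sets were averaged (adjusted p = 0.0392). Pole2, a subunit of the leading-strand polymerase, read 608, 671 and 585 in DMSO and 83.1, 85.1 and 90.9 in rapamycin (-2.64 ± 0.15). The checkpoint adaptor Clspn changed by -2.60 ± 0.12 and DNA ligase I (Lig1) by -2.43 ± 0.10, both with separated groups. Timeless, which travels with the fork, read 453, 408 and 498 in DMSO and 96.2, 22.6 and 98.9 in rapamycin. Its second rapamycin array lay well below the other two, yet all 3 lay below every DMSO array (-2.56 ± 0.28, adjusted p = 1.49e-06).

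Enzymes that supply deoxynucleotides fell in 10 of 15 cases and rose in 2. Thymidine kinase 1 (Tk1), which salvages thymidine in S phase, dropped from 2866, 3171 and 2848 to 320.3, 398 and 353 (-3.001 ± 0.09, adjusted p = 1.26e-13). The small subunit of ribonucleotide reductase, Rrm2, changed by -2.72 ± 0.08, and deoxycytidine kinase (Dck) by -2.54 ± 0.13. The dUTPase Dut changed by -1.83 ± 0.09. The 2 rises were small, at 0.61 for the mitochondrial kinase Tk2 and 0.28 for the dNTP hydrolase Samhd1, whose 5 probe sets ranged from -0.98 to 1.02 with 1 called lower, and both calls were lost without the second DMSO array (adjusted p = 0.0936 and 0.0561) or the third rapamycin array (adjusted p = 0.0940 and 0.0737). The call of Tk2 was also lost without the first DMSO or the second rapamycin array (adjusted p = 0.0900 and 0.0605).

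Homologous recombination and Fanconi genes fell in 25 of 37 cases and rose in none. Brip1, the helicase that partners BRCA1, was the one gene that read at least 100 on all arrays of one group and below the filter limit on dim genes (a signal of 22.2) on all of the other. Its signals were 196, 138 and 127 in DMSO and 18.6, 4.17 and 4.71 in rapamycin, and since the latter lie below that limit no size of change is given. Brca1 read 473, 537 and 541 in DMSO and 77.9, 84.4 and 89.2 in rapamycin (-2.42 ± 0.12), and the checkpoint kinase Chek1 changed by -2.45 ± 0.18. Among genes that rebuild chromatin behind the fork, 23 of 26 fell. The histone chaperone subunit Chaf1b (-2.67 ± 0.11), the remodeller Hells (-2.67 ± 0.10) and Uhrf1, which recruits the maintenance DNA methyltransferase (-2.61 ± 0.15), all fell.

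The list of histone genes, which also holds the non-histone gene Slbp, was mixed, with 3 falls and 2 rises among 10 tested. The variant H2az1 read 7619, 8018 and 7007 in DMSO and 2338, 2558 and 2351 in rapamycin (-1.64 ± 0.08), and H2ax (-1.61 ± 0.09) and the stem-loop binding protein Slbp (-1.54 ± 0.07), which serves replication-dependent histone mRNAs, also fell. The linker histone H1f2 rose (0.46 ± 0.10). The variant H2az2 was also called higher (0.24), but its other probe set was called lower (-0.45). Histone mRNAs without a poly(A) tail are poorly captured by this kind of labelling, which starts from poly(A).

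Mitotic genes fell as deeply as replication genes. Of 25 kinases and spindle checkpoint genes 24 fell, 22 of them at least 2-fold, with a median of -2.10. The other member, Mad1l1, missed the threshold (adjusted p = 0.0527) and passed without the first rapamycin array (adjusted p = 0.0248). Aurora A (Aurka), which matures the spindle poles, read 1991, 2129 and 1885 in DMSO and 275, 296 and 274 in rapamycin (-2.76 ± 0.07, adjusted p = 6.52e-14). Incenp, Birc5 and Cdca8, which with Aurora B form the chromosomal passenger complex, changed by -2.66 ± 0.08, -2.65 ± 0.11 and -2.48 ± 0.07. Kinetochore and centromere genes fell in 34 of 35 cases (median -1.78). Cenpi read 846, 1024 and 884 in DMSO and 166, 99.3 and 139 in rapamycin (-2.65 ± 0.15), and Spc25, a subunit of the NDC80 complex that holds microtubules, changed by -2.52 ± 0.12. The centromere protein Cenpb was the one not called.

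Of 39 motor and cytokinesis genes 33 fell and 2 rose (median -1.83), with the bipolar spindle motor Kif11 at 802, 669 and 647 in DMSO and 98.9, 142 and 132 in rapamycin (-2.37 ± 0.13) and the RhoA exchange factor Ect2 at -2.28 ± 0.09. The p53-linked spindle protein Gtse1 read 450.4, 382 and 484 in DMSO and 49.0, 36.7 and 72.2 in rapamycin (-2.75 ± 0.19). The 2 members that rose, Kif1b (0.83 ± 0.11) and Kif3a (0.77 ± 0.09), are motors for organelle and ciliary transport. Of 24 cohesin and condensin genes 15 fell and 2 rose. The cohesin acetyltransferase of S phase, Esco2, changed by -2.75 ± 0.17, and the condensin subunits Ncapg2 and Ncapg by -2.60 ± 0.12 and -2.27 ± 0.10. The rises were of the cohesin loader Nipbl (0.32 ± 0.10, adjusted p = 0.0207) and Esco1, a second cohesin acetyltransferase (0.24 ± 0.09, adjusted p = 0.0496). Both calls were fragile. That of Nipbl was lost without the first or the second DMSO array (adjusted p = 0.0859 and 0.0585) or the first rapamycin array (0.118). That of Esco1 was lost without any one array except the third rapamycin array (adjusted p = 0.0565 to 0.146).

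Cyclin A2 (Ccna2), which acts in S phase and at mitotic entry, read 2695, 2671 and 2622 in DMSO and 436, 513 and 573 in rapamycin (-2.36 ± 0.09). With it, 17 of 28 genes of the G2 to M transition and the anaphase-promoting complex fell and 2 rose. The falls included Ube2c (-2.23 ± 0.10) and Fbxo5 (-2.21 ± 0.11), and the rises were of the complex's subunits Anapc2 (0.53 ± 0.07) and Anapc13 (0.50 ± 0.08). Centriole genes fell in 14 of 24 cases, with Plk4, the kinase that licenses centriole duplication, at 1798, 1988 and 1828 in DMSO and 401, 488 and 329.8 in rapamycin (-2.18 ± 0.11). Nuclear pore and import genes fell in 24 of 31 cases, none rose, and the importin Kpna2 read 7633, 8564 and 7353 in DMSO and 2412, 2456 and 2583 in rapamycin (-1.65 ± 0.08).

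The upstream regulators of S phase were less uniform. Among 19 E2F, pocket protein and DREAM genes 13 fell and 1 rose. The repressors E2f7 (618, 681 and 682 in DMSO, 138, 132 and 141 in rapamycin, -2.14 ± 0.10) and E2f8 (-2.17 ± 0.18) fell most. The activator E2f1 fell by less (513, 483 and 553 in DMSO and 379, 375 and 341 in rapamycin, -0.48 ± 0.10, adjusted p = 0.000654), and E2f3 (-0.03 ± 0.12) and E2f4 (0.09 ± 0.17) were not called. E2f2 was dim, and its change of -1.03 ± 0.39 (adjusted p = 0.0483) was lost without the first or second DMSO array (adjusted p = 0.159 and 0.0973) or without the second or the third rapamycin array (adjusted p = 0.0616 and 0.175). The retinoblastoma gene Rb1 read 348, 404 and 379 in DMSO and 412, 429 and 409 in rapamycin and was not called (0.14 ± 0.11). Its relative p107, Rbl1, fell from 895, 944 and 905 to 322, 319 and 356 (-1.42 ± 0.08). For p130 (Rbl2) the change was 0.29 ± 0.10 (adjusted p = 0.0282), and the adjusted p was 0.0611 and 0.0658 without the first or the third DMSO array and 0.0733 and 0.0825 without the second or the third rapamycin array. The late cell cycle factors Mybl2 (-1.89 ± 0.18) and Foxm1 (-1.73 ± 0.20) fell.

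Of 24 G1 cyclin, kinase and inhibitor genes, 10 fell and 5 rose. The inhibitors went both ways. Cdkn1a, which encodes p21, fell from 310.1, 291 and 292 to 104, 113 and 78.9 (-1.46 ± 0.16, adjusted p = 1.24e-06). Cdkn2b, which encodes p15, rose from 668, 617 and 680.3 to 849, 1163 and 1102 (0.64 ± 0.11), and the growth arrest gene Gas1 read 736, 968 and 758 in DMSO and 1796, 1552 and 1511 in rapamycin (0.97 ± 0.10). Cdkn1b, the p27 gene, read 766, 755 and 658 in DMSO and 1073, 1152 and 881 in rapamycin (0.50 ± 0.10), with an adjusted p of 0.0630 for the mean of its probe sets. Of the D cyclins, Ccnd1 changed by 0.37 ± 0.08 (adjusted p = 0.00232) and Ccnd2 and Ccnd3 were not called.

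Promoter sequence was set beside these changes. RefSeq's table held promoters for 10260 of the 12715 genes tested, 1 or more per gene, each of 300 bases. The E2F motif was in 12.9% of 479 promoters of genes that fell at least 2-fold, 5.47% of 1426 of genes that fell less, 3.40% of 8423 of genes not called, 2.68% of 2501 of genes that rose under 2-fold and 3.04% of 263 of genes that rose more. It was in 2.26% of all 32851 promoters of the table and in 3.83% of the 13092 promoters of genes tested. The cell cycle homology region (CHR), searched as TTTGAA or TTCGAA on both strands, was in 33.2%, 15.4%, 13.3%, 11.6% and 12.2% of the same 5 classes and in 19.2% of all promoters. The CCAAT box, searched as CCAAT on both strands, was in 54.9%, 41.7%, 36.9%, 35.6% and 29.3%, and in 37.4% of all. Over promoters of genes tested the shares were 13.9% for the CHR and 37.7% for the CCAAT box.

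Counts of the motifs differed between the lists, over all tested members whatever their change. The E2F motif was in 11 of 26 promoters of origin genes and 9 of 34 of fork genes, and in 0 of 18 of deoxynucleotide synthesis genes and 0 of 20 of mitotic kinase and checkpoint genes. Among cohesin and condensin promoters it was in 6 of 20 and the CHR in 11 of 20. The CHR was in 29 of 41 promoters of kinesin and cytokinesis genes, 11 of 20 of mitotic kinase genes and 15 of 33 of kinetochore genes, against 7 of 26 of origin genes. These matches are descriptions of the letters, and binding was not measured. The Aurka promoter is shown for its CHR, in capitals, which begins 32 bases after the start (GRCm38.p6, chr2:172370521-172370820, minus strand).
Aurka: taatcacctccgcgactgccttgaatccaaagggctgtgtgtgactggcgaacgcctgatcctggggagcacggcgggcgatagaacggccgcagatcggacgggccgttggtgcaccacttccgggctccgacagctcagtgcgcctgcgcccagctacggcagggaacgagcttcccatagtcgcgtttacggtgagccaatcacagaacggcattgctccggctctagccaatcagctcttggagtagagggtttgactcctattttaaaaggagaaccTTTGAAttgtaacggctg

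**Figure D4:**
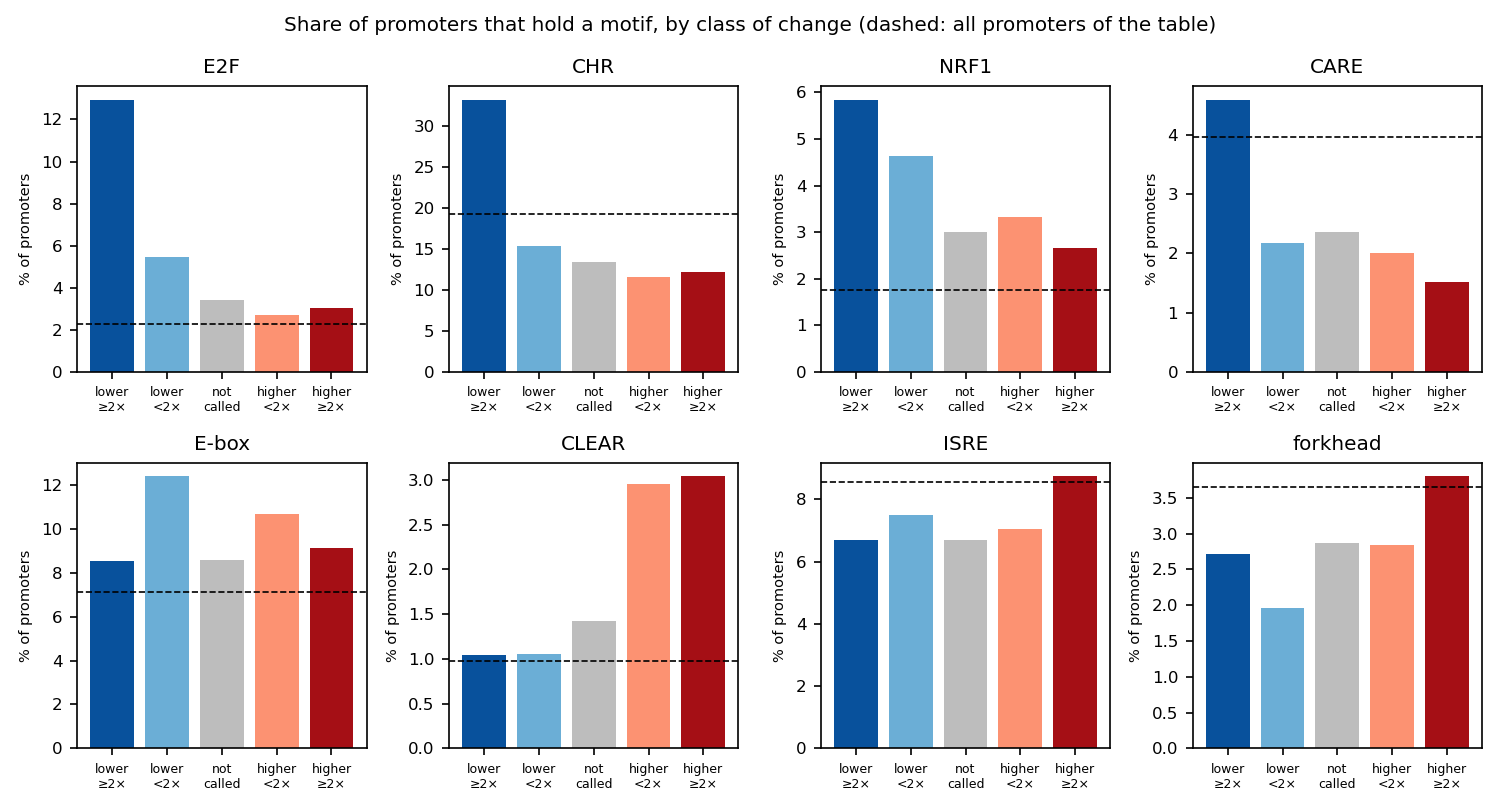
Share of promoters (percent) that hold each of 8 motifs, by class of change: fell at least 2-fold (479 promoters), fell less (1426), not called (8423), rose under 2-fold (2501) and rose at least 2-fold (263). The dashed line is the share over all 32851 promoters. The E2F and CHR bars are highest for genes that fell at least 2-fold (12.9% and 33.2%), and the CLEAR bars for genes that rose (2.96% and 3.04%).

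Genes that build ribosomes fell, whereas few genes of the ribosomal proteins themselves were called. Of 74 assembly and nucleolar genes 54 fell and 1 rose (median -0.51). The exosome subunit Exosc2 read 1086, 1157 and 1030.5 in DMSO and 361, 414 and 399 in rapamycin (-1.44 ± 0.08, adjusted p = 2.64e-10). The box H/ACA pseudouridine synthase Dkc1 changed by -1.25 ± 0.08 and the box C/D core protein Nop58 by -1.19 ± 0.07. Of 78 cytosolic ribosomal protein genes only 44 were tested. Of these, 1 fell and 3 rose (median 0.17), with between 1 and 6 rises under other settings, and 40 had a positive change. Their median DMSO signal was 13540, against 845 for the assembly genes, and the part of signal in this contrast was not tested. Rps6, the substrate of the S6 kinases, read 474, 541 and 428 in DMSO and 682, 684 and 798 in rapamycin (0.57 ± 0.10). That rise rests on 1 probe set, with signals far below the list's median, and whether it reads the main Rps6 transcript was not tested. Host transcripts of small nucleolar RNAs leaned up, with 5 rises and 3 falls among 14. Zfas1 read 802, 675 and 829.7 in DMSO and 2273, 2316 and 3190.4 in rapamycin (1.72 ± 0.11, adjusted p = 1.48e-09), Gas5 1388, 1337 and 1197 in DMSO and 2519.8, 2977 and 2841 in rapamycin (1.08 ± 0.08), and Snhg7 changed by 1.04 ± 0.13. Many of these hosts are, like ribosomal protein mRNAs, transcripts whose first bases form a terminal oligopyrimidine tract, which links their translation to mTOR.

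RNA polymerase I and III genes moved little, with 9 falls and 5 rises among 38 and a median of 0.00. The polymerase III subunit Polr3k changed by -0.82 ± 0.07. Translation factors fell in 20 of 56 cases and rose in 10. The cap-binding protein Eif4e read 5032, 5309.6 and 4314 in DMSO and 3071, 3474 and 3439.8 in rapamycin (-0.55 ± 0.08), and its inhibitor Eif4ebp1, a direct target of mTOR, read 6137, 6335 and 5078 in DMSO and 3719, 3271 and 3669.6 in rapamycin (-0.71 ± 0.09). Both were lower on every rapamycin array. The helicase inhibitor Pdcd4 (0.75 ± 0.10) and the helicase Eif4a2 (0.75 ± 0.09) rose.

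Mitochondrial ribosome and import genes fell more often than they rose. Of 75 mitochondrial ribosome genes 37 fell and 3 rose, led by Mrpl18 (2069, 1864 and 1912 in DMSO and 851, 992 and 987 in rapamycin, -1.04 ± 0.08). Import and biogenesis genes fell in 18 of 36 cases and rose in 2. Timm8a1, a chaperone of the intermembrane space, stood out from that list: it read 2296, 2376 and 1959.8 in DMSO and 419, 421 and 406 in rapamycin (-2.36 ± 0.08), while the next fall was Tomm40 (-0.88 ± 0.09). Of 74 oxidative phosphorylation genes 17 rose (22.97%) and 8 fell (10.8%), near the 20.4% and 15.2% of all genes, with a median of 0.08, and 10 rose with arrays centred on their 75th percentile and 11 without the second rapamycin array. The supercomplex factor Cox7a2l rose from 3102, 2709.8 and 2258 to 4922, 6281 and 6099 (1.10 ± 0.11), and cytochrome c (Cycs) fell (-0.69 ± 0.08).

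Amino acid and nucleotide genes fell more often than they rose. Enzymes of serine, one-carbon and proline synthesis fell in 17 of 25 cases and rose in 1 (median -1.10), cytosolic aminoacyl-tRNA synthetases in 19 of 21 and 1 (median -0.58), and purine and pyrimidine enzymes in 17 of 23 and 3 (median -0.45). Psph, which completes serine synthesis, read 3104, 2789.7 and 2603 in DMSO and 485, 497 and 563 in rapamycin (-2.42 ± 0.08, adjusted p = 5.47e-13). The phosphoribosyl pyrophosphate synthetase Prps1 changed by -1.05 ± 0.10, and Cars, the cysteinyl-tRNA synthetase, by -1.14 ± 0.09. The glutaminyl-tRNA synthetase Qars was the one that rose, from 1851, 1609.8 and 1543 to 2113, 2431 and 2453 (0.48 ± 0.08, adjusted p = 0.000220). Mitochondrial synthetases differed from the cytosolic ones in their counts, with 3 falls (5 or 6 with other scalings of the arrays) and 2 rises among 16, and that difference was not tested.

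Amino acid transporters went both ways, with 7 falls and 5 rises among 26 and a median of 0.06. The leucine transporter Slc7a5 read 2601, 2398 and 2217 in DMSO and 780.3, 743 and 867 in rapamycin (-1.57 ± 0.08), and its partner Slc3a2 changed by -0.92 ± 0.09. The cystine transporter Slc7a11 fell from 84.3, 93.4 and 84.4 in DMSO to 8.68, 3.71 and 39.5 in rapamycin (adjusted p = 0.00143). Its first and second rapamycin signals lie below the filter limit of 22.2, so no size of change is given. Its other probe set was not called (-0.69). The rises included the glutamate transporter Slc1a3 (0.86 ± 0.22) and the lysosomal exporter Slc36a1 (0.68 ± 0.18). Among 26 ATF4 and CHOP regulators 13 fell and 3 rose. Atf4 itself fell from 4346, 4372 and 4378 to 2333, 2595 and 2708 (-0.78 ± 0.08, adjusted p = 3.98e-07). The glutathione-degrading enzyme Chac1 read 1722, 1549 and 1417 in DMSO and 444, 434 and 376 in rapamycin (-1.86 ± 0.09), and the pseudokinase Trib3 changed by -1.47 ± 0.14. Sesn2, a leucine sensor that restrains mTOR complex 1, read 101, 197 and 322 in DMSO and 26.4, 16.4 and 119 in rapamycin, with the third rapamycin array above the first DMSO array (-1.83 ± 0.45, adjusted p = 0.00357). Ddit4, which restrains the complex through TSC2, changed by -0.98 ± 0.10. The kinase Eif2ak4 (GCN2), which senses uncharged tRNA, rose (0.74 ± 0.16).

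The amino acid response element (CARE) was searched as TGATGNAA on both strands. It was in 4.59% of promoters of genes that fell at least 2-fold and 2.35% of those not called. Its share was 2.33% over promoters of genes tested and 3.97% over all promoters. It was in 5 of 15 promoters of cytosolic synthetase genes and 2 of 23 of serine and one-carbon genes. Asns, the asparagine synthetase gene, read 4772, 4700.1 and 4228 in DMSO and 2047, 1998 and 2142 in rapamycin (-1.14 ± 0.07, adjusted p = 1.25e-09). Its promoter is shown for the element, in capitals, which begins 23 bases before the start (GRCm38.p6, chr6:7693160-7693459, minus strand).
Asns: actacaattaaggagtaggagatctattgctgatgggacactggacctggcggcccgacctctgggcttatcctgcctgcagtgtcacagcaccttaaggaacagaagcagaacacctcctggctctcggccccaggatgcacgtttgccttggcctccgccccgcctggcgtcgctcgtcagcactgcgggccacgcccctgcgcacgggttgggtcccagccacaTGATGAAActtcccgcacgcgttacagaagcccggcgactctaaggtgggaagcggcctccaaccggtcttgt

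Energy and lipid pathways were divided. Glycolysis and lactate export genes fell in 15 of 28 cases and rose in 6. The lactate exporter Slc16a3 read 624, 674 and 610.5 in DMSO and 188, 224 and 236 in rapamycin (-1.49 ± 0.13), and lactate dehydrogenase Ldha changed by -0.85 ± 0.09. The neuronal enolase Eno2 went the other way, from 57.5, 37.9 and 75.5 to 129.6, 169 and 142 (1.18 ± 0.25, adjusted p = 0.00122). The oxygen-sensing factor Hif1a (0.06 ± 0.08) and its target Vegfa (-0.24 ± 0.11) were not called, although Vegfa passed where its probe sets were averaged (adjusted p = 0.0426). HIF targets gave 4 rises and 4 falls among 22 (18.2% each), near the 20.4% higher and 15.2% lower of all genes. The spermidine synthase Srm fell from 3224, 3303 and 2771 to 1106, 1061 and 1135 (-1.48 ± 0.08), as did ornithine decarboxylase, Odc1 (-0.78 ± 0.07).

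Fatty acid oxidation genes rose in 14 of 27 cases and fell in 1 (median 0.33), with the carnitine acyltransferase Cpt1c at 0.76 ± 0.21 and the isomerase Eci1 at 0.55 ± 0.08. Cholesterol genes rose in 11 of 27 cases and fell in 2, and 7 rose with arrays centred on their 75th percentile or without the mean-variance trend or the third rapamycin array. The sterol regulator Srebf2 rose (422, 433 and 512 in DMSO and 640.2, 725 and 662 in rapamycin, 0.55 ± 0.09), whereas Srebf1 was not called (0.20 ± 0.09). Fatty acid and triglyceride synthesis gave 5 rises and 2 falls among 26, with the lipase Pnpla2 at 0.74 ± 0.10, and 3 rises without the trend or the second DMSO array.

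Proteasome and cytosolic chaperone genes fell more often than they rose, and ER chaperones did not fall as a list. Of 42 proteasome genes 25 fell and 3 rose (median -0.32). The activator subunits parted: Psme3, of the nuclear activator, changed by -1.10 ± 0.09 and the interferon-inducible Psme1 by 0.61 ± 0.07. Nfe2l1, the factor that drives proteasome genes, rose from 826, 979 and 966 to 1581, 1137 and 1403 (0.56 ± 0.11). Cytosolic chaperones fell in 23 of 44 cases and rose in 4, led by Fkbp5, a co-chaperone that also binds rapamycin (421, 463 and 542 in DMSO and 197, 193 and 188 in rapamycin, -1.23 ± 0.11). ER chaperones gave 9 falls and 6 rises among 33 (median 0.02), and 5 falls without the second rapamycin array. Splicing factors gave 21 falls and 12 rises among 57. The SR proteins Srsf2 (-0.96 ± 0.07) and Srsf1 (-0.82 ± 0.09) fell, while the SR protein kinases Clk1 (1091, 1054 and 1015 in DMSO and 2227, 2318 and 1967 in rapamycin, 1.03 ± 0.08) and Clk4 (0.80 ± 0.17) rose.

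Lysosomal genes rose together. Of 42 hydrolases 33 rose and none fell, with a median of 0.69. The cathepsin Ctso read 424, 498 and 371 in DMSO and 978, 849 and 915 in rapamycin (1.06 ± 0.12, adjusted p = 2.51e-06). The peptidase Dpp7 changed by 1.04 ± 0.10 and arylsulfatase A (Arsa) by 0.99 ± 0.11. Ctsa changed by 1.10 ± 0.08, but by 0.36 (adjusted p = 0.0566) where its probe sets were averaged. The cysteine protease Ctsf read 3.38, 6.57 and 21.6 in DMSO and 77.2, 76.9 and 112 in rapamycin. All its DMSO signals lay below the filter limit of 22.2, so that it was tested only because of its level on other arrays, and no size of change is given. Of 36 membrane and proton pump genes 21 rose and 2 fell. The pump subunit Atp6v0e2 read 219.6, 197 and 234 in DMSO and 459, 469.7 and 573 in rapamycin (1.14 ± 0.12), and the sorting receptor Igf2r and the membrane protein Lamp2 changed by 1.05 ± 0.16 and 0.77 ± 0.08.

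The E-box, searched as CACGTG, was in 13 of 43 promoters of hydrolase genes and its extended form CLEAR, searched as TCACGTGA and thus contained in the E-box matches, in 4 of 43. The E-box was also in 15 of 66 promoters of ribosome assembly genes. Over all promoters the shares of E-box and CLEAR were 7.15% and 0.974%, and over those of genes tested 9.42% and 1.70%. By class of change, CLEAR was in 1.04% and 1.05% of promoters of genes that fell at least 2-fold or less, 1.42% of those not called, and 2.96% and 3.04% of those that rose under or at least 2-fold. The last class held only 263 promoters. In the same order the E-box was in 8.56%, 12.4%, 8.60%, 10.7% and 9.13%, with the highest share among smaller falls. The Ctsf promoter is shown for its E-box, in capitals, 79 bases before the start (GRCm38.p6, chr19:4854915-4855214, plus strand).
Ctsf: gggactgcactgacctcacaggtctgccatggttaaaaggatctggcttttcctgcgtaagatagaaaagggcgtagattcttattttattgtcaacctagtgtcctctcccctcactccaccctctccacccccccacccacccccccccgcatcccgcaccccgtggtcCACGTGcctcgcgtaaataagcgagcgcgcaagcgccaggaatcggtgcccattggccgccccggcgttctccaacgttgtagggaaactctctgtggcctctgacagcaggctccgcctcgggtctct

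Autophagy genes rose in 19 of 47 cases and fell in 4. The receptor Calcoco1 read 244, 242 and 259 in DMSO and 721, 709.7 and 675 in rapamycin (1.44 ± 0.12, adjusted p = 4.31e-08). Atg14, which directs the lipid kinase VPS34 to the autophagosome, read 101, 103 and 30.3 in DMSO and 216, 158 and 189.6 in rapamycin (1.23 ± 0.29, adjusted p = 0.00302), and the scaffold Rb1cc1 changed by 0.86 ± 0.12. The protease Atg4d went down, from 301, 321 and 359 to 153, 146 and 93.3 (-1.25 ± 0.18). Ulk1, the kinase that mTOR complex 1 inhibits, was not called (0.32 ± 0.15), but passed (adjusted p = 0.0421) once the third DMSO array was left out. The receptor Sqstm1 changed by 0.31 ± 0.08 (adjusted p = 0.00578), with an adjusted p of 0.281 for the mean of its probe sets.

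The mTOR pathway's own genes moved little: of 44 tested, 10 rose and 1 fell, with a median of 0.07. Mtor read 369.5, 280.5 and 409 in DMSO and 482, 413 and 379 in rapamycin (0.27 ± 0.13, adjusted p = 0.125), and its adjusted p was 0.0306 with the third DMSO array left out. The complex 1 scaffold Rptor (0.10 ± 0.13), the GTPase Rheb (-0.08 ± 0.09) and the drug's receptor Fkbp1a (-0.08 ± 0.08) were not called. The complex 2 subunit Rictor read 233, 288 and 235 in DMSO and 503, 439 and 373 in rapamycin (0.76 ± 0.12), with an adjusted p of 0.0633 for the mean of its probe sets. Deptor, an inhibitor bound to both complexes, read 306, 344 and 242 in DMSO and 449, 399 and 409.6 in rapamycin (0.49 ± 0.12, adjusted p = 0.00314). Tsc2 rose (0.59 ± 0.15, adjusted p = 0.00594), and Tsc1 was not called (0.07 ± 0.14). The lysosomal factors Tfeb (-0.15 ± 0.32), Tfe3 (-0.09 ± 0.11) and Mitf (-0.35 ± 0.18) and the Rag GTPase Rragd (-0.03 ± 0.33) were not called, nor was Flcn (0.24 ± 0.11), which passed at 0.0420 with the same array left out.

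FoxO factors and their targets rose in 17 of 35 cases and fell in 1. The factor Foxo3 read 267, 179 and 132 in DMSO and 481, 377 and 399.5 in rapamycin (1.10 ± 0.21, adjusted p = 0.000433), and Foxo1 changed by 0.49 ± 0.11, with an adjusted p of 0.0509 for the mean of its probe sets. The PI3-kinase inhibitor Pik3ip1 read 293, 289 and 272 in DMSO and 873, 831 and 921 in rapamycin (1.57 ± 0.12, adjusted p = 1.86e-08). The ubiquitin ligase Fbxo32, known for muscle atrophy, changed by 1.77 ± 0.17. Mxd4, an antagonist of MYC, read 348, 266 and 274 in DMSO and 655, 790.0 and 756 in rapamycin (1.27 ± 0.12), whereas Mxd3 of the same family fell (-1.30 ± 0.23). Myc itself read 345, 325 and 207 in DMSO and 419, 463 and 412 in rapamycin (0.57 ± 0.13, adjusted p = 0.00258).

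**Figure D5:**
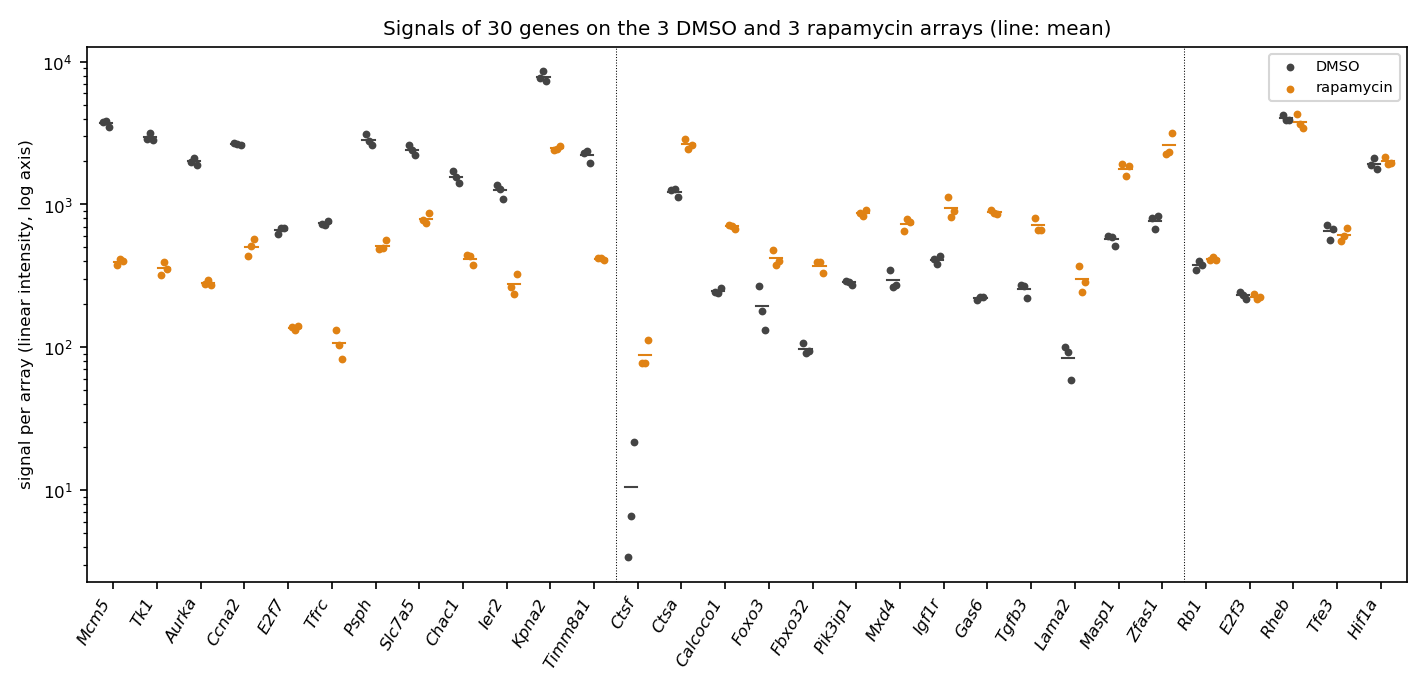
Signals of 30 genes on the 3 DMSO arrays (grey) and the 3 rapamycin arrays (orange), one point per array with the mean as a line, on a log axis. Dotted lines separate genes that fell, genes that rose and genes not called. Mcm5 goes from 3500 to 3852 in DMSO to 378 to 412 in rapamycin, and Ctsf from 3.38 to 21.6 to between 76.9 and 112.

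Insulin, IGF and IGF-binding genes rose in 13 of 25 cases and fell in 1 (median 0.42). Igf1r read 415, 383 and 432 in DMSO and 1132, 819 and 895 in rapamycin (1.17 ± 0.11, adjusted p = 1.28e-07), the insulin receptor Insr 104, 165 and 153 in DMSO and 255, 205 and 233 in rapamycin (0.67 ± 0.18) and the adaptor Irs1 577, 515 and 387 in DMSO and 934, 1012 and 992 in rapamycin (0.98 ± 0.13). All 3 were higher on every rapamycin array. The kinase Akt1 was not called (-0.16 ± 0.09), but its fall passed (adjusted p = 0.0462) once the third DMSO array was left out. Receptors for growth factors, with their ligands, rose in 14 of 39 cases and fell in 1. Gas6, the ligand of the TAM receptors, read 215, 225 and 224 in DMSO and 909.7, 869.7 and 864 in rapamycin (1.92 ± 0.13), and the PDGF receptor Pdgfrb 703, 756 and 728 in DMSO and 1669.7, 1419.9 and 1251 in rapamycin (0.96 ± 0.10). The EGF-family ligand Ereg fell (-0.76 ± 0.20).

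Immediate early and ERK feedback genes gave 8 rises and 8 falls among 40 (20.0% each), near the 20.4% higher and 15.2% lower of all genes. The falls were the larger. Fos read 459, 416 and 476 in DMSO and 107, 100.2 and 68.2 in rapamycin (-2.13 ± 0.19, adjusted p = 1.34e-07), Ier2 1378, 1285 and 1099.5 in DMSO and 264, 235 and 328 in rapamycin (-2.13 ± 0.12), and the AP-1 subunit Fosl1 changed by -2.04 ± 0.16. The largest rise, of the orphan receptor Nr4a2 (0.94 ± 0.18), had an adjusted p of 0.198 for the mean of its probe sets, and the small MAF protein Maff rose by 0.83 ± 0.23.

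TGF-beta and BMP genes rose in 18 of 42 cases and fell in 2. The ligand Tgfb3 read 275, 269 and 219.5 in DMSO and 809.6, 667 and 663 in rapamycin (1.43 ± 0.12, adjusted p = 4.27e-08), the latent binding protein Ltbp4 186, 193 and 109 in DMSO and 422, 379.6 and 400.0 in rapamycin (1.26 ± 0.17), and the protease Bmp1 changed by 1.15 ± 0.09. Both falls were inhibitors of differentiation, Id1 (2869, 2815 and 2434 in DMSO and 1398, 1712 and 1706 in rapamycin, -0.75 ± 0.09) and Id2 (-0.83 ± 0.10), which respond to BMP in many cells. Of 39 Wnt and Notch genes 13 rose and 1 fell, with the receptor Notch3 at 0.88 ± 0.16 and the factor Lef1 at 0.85 ± 0.12. YAP targets and Hippo genes rose in 16 of 27 cases and fell in none (median 0.28), with Crim1 at 327, 293 and 339 in DMSO and 836, 718 and 615 in rapamycin (1.13 ± 0.13), Amotl2 at 0.84 ± 0.09 and Tead1 at 0.73 ± 0.08.

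The matrix lists rose broadly. Laminins, proteoglycans and matricellular genes rose in 24 of 39 cases and fell in 2 (median 0.64), collagens and their enzymes in 20 of 35 and 3 (median 0.34), proteases and inhibitors in 17 of 32 and 5 (median 0.41), and integrins and adhesion genes in 19 of 34 and 1 (median 0.30). Lama2, the laminin of muscle basement membrane, read 100.2, 92.8 and 59.2 in DMSO and 368, 245 and 287 in rapamycin (1.67 ± 0.28, adjusted p = 0.000140). Agrn, which clusters acetylcholine receptors, read 320.0, 224 and 228 in DMSO and 998, 577 and 687 in rapamycin (1.47 ± 0.17). The small leucine-rich proteoglycan Ogn changed by 1.33 ± 0.09 and the calcification inhibitor Mgp by 1.29 ± 0.12. Adamtsl4 read 329.8, 308 and 256 in DMSO and 1120.1, 876 and 868 in rapamycin (1.63 ± 0.12), the membrane-bound protease inhibitor Reck 190.1, 231 and 219 in DMSO and 521, 541 and 516 in rapamycin (1.24 ± 0.13), and integrin beta 5 (Itgb5) 1698, 1549 and 1361 in DMSO and 4219, 3713 and 3906 in rapamycin (1.36 ± 0.08). The protease Adamts1 (-0.71 ± 0.19) and the collagen Col5a3 (-0.73 ± 0.16) fell. Semaphorins, ephrins and their receptors rose in 15 of 45 cases and fell in 2, with Sema3b at 42.0, 103 and 22.9 in DMSO and 185, 126 and 177 in rapamycin (1.45 ± 0.31).

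Contractile genes of smooth muscle rose in 15 of 33 cases and fell in 1, but the lineage markers Acta2 and Cnn1 were not called. The light chain Myl6 read 256, 254 and 298 in DMSO and 769.7, 707 and 643 in rapamycin (1.34 ± 0.11, adjusted p = 6.5e-08), and the adhesion proteins Lpp (1.08 ± 0.09) and Vcl (0.88 ± 0.09) rose. Skeletal muscle and synapse genes gave 6 rises and 3 falls among 36 tested (median -0.09). The sarcomeric genes Tnnt2 (540.1, 461 and 416 in DMSO and 179, 185 and 204 in rapamycin, -1.24 ± 0.15) and Acta1 (341, 310.5 and 301 in DMSO and 134, 126 and 174 in rapamycin, -1.06 ± 0.18) fell, whereas Jph2, which couples membranes at the muscle triad, rose (0.87 ± 0.13).

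Interferon-linked genes rose in 31 of 62 cases and fell in 2 (median 0.38). The guanylate-binding protein Gbp2 read 406, 329 and 263 in DMSO and 1006, 968 and 1023 in rapamycin (1.56 ± 0.21, adjusted p = 1.55e-05), Ifit3 2086, 1494 and 1638 in DMSO and 4396, 3735 and 4271 in rapamycin (1.25 ± 0.14), and the nucleic acid sensor Zbp1 276, 179 and 199 in DMSO and 526, 398 and 572 in rapamycin (1.14 ± 0.21). The interferon element, searched as GAAANNGAA on both strands, was in 28 of 59 promoters of the list. Its share was 6.90% over promoters of genes tested and 8.56% over all promoters. Antigen presentation genes rose in 9 of 18 cases and fell in none, with the peptide transporter Tap2 at 0.93 ± 0.19 and the trimming enzyme Erap1 at 0.72 ± 0.19. Complement genes rose in 5 of 12 cases. The lectin pathway protease Masp1 read 599, 596 and 511 in DMSO and 1925, 1576 and 1851 in rapamycin (1.62 ± 0.10), and the classical pathway protease C1s1 429, 453 and 309 in DMSO and 1153, 961 and 938 in rapamycin (1.34 ± 0.14). Cytokine, chemokine and NF-kappaB genes rose in 14 of 48 cases and fell in 3. The chemokines Cxcl16 (-1.47), Cxcl10 (-0.75) and Ccl2 (-0.38) fell, and the rises included chains of the IL-6 receptor family. Osmr read 929.7, 935 and 892 in DMSO and 2183, 1836 and 1869 in rapamycin (1.08 ± 0.08), the shared chain Il6st changed by 0.79 ± 0.09, Lifr by 0.77 ± 0.10 and the downstream factor Stat3 by 0.71 ± 0.10. The 2 other probe sets of Lifr were not called (its range was 0.13 to 0.77). The 4 probe sets of Stat3 ranged from -0.67 to 1.15, and 2 of them were not called.

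Of 24 iron handling genes 9 rose and 5 fell (median 0.20). The transferrin receptor Tfrc, through which cells take up iron, read 729, 723 and 763 in DMSO and 133, 104 and 83.1 in rapamycin (-2.64 ± 0.12, adjusted p = 1.48e-11). The haem synthesis enzymes Alad (-1.004 ± 0.08) and Cpox (-0.73 ± 0.13) also fell. The iron exporter Slc40a1 read 226, 232 and 161 in DMSO and 393, 370.2 and 347 in rapamycin (0.81 ± 0.13), though its other probe set was not called (0.15), and the ferroxidase Cp 181, 209 and 227 in DMSO and 891, 531 and 406 in rapamycin, with a wide spread among the rapamycin arrays (1.43 ± 0.30, adjusted p = 0.00112). Redox genes linked to NRF2 gave 12 rises and 12 falls among 40, the factor Nfe2l2 was not called (0.12 ± 0.07), and the transferase Gstt1 rose (746, 582 and 689.9 in DMSO and 1392, 1586 and 1463 in rapamycin, 1.12 ± 0.10).

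Of 28 p53 pathway targets 7 fell and 3 rose. The stress gene Trp53inp1 read 61.1, 47.9 and 40.02 in DMSO and 215, 168 and 190.2 in rapamycin (1.66 ± 0.31, adjusted p = 0.000399), opposite in direction to Cdkn1a. Among BCL2 family and caspase genes 6 rose and 5 fell of 27 (22.2% and 18.5%), near the 20.4% and 15.2% of all genes. The BH3-only genes Bcl2l11 (0.93 ± 0.10) and Bmf (0.92 ± 0.15), known FoxO targets, rose, and Bok fell (-0.89 ± 0.11). Circadian genes gave 5 rises and 5 falls among 19, with the output factor Dbp at 337, 298 and 338 in DMSO and 517, 733 and 654 in rapamycin (0.92 ± 0.12) and 2 rises with the mean of probe sets. ABC transporters gave 7 rises and 7 falls among 28, and all 4 leading rises were of the ABCA family of lipid transporters: Abca3 (1.30 ± 0.16), Abca7 (1.24 ± 0.16), Abca2 (1.18 ± 0.25) and Abca5 (0.86 ± 0.14).

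Imprinted growth genes rose in 6 of 14 cases and none fell, with Sgce at 436, 536 and 346 in DMSO and 1013, 837 and 976 in rapamycin (1.09 ± 0.19) and Peg3 at 0.77 ± 0.08. Chromatin modifiers rose in 25 of 68 cases and fell in 3 (median 0.30), led by the class II deacetylase Hdac5 (458, 509 and 452 in DMSO and 880.3, 895 and 969 in rapamycin, 0.93 ± 0.09) and the remodeller Smarca2 (0.85 ± 0.11). Glycosylation and secretion genes gave 13 rises and 8 falls among 52, with the Golgi tether Golgb1 at 1.20 ± 0.21 and the coat protein Sec13 at -0.66 ± 0.07.

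Some of the largest rises belonged to no theme among the lists. Synpo, an actin-associated protein, read 153, 143 and 112 in DMSO and 549.8, 535 and 506 in rapamycin (1.86 ± 0.24, adjusted p = 1.14e-05). The endocytic receptor Lrp1 read 426, 432 and 430.4 in DMSO and 1709, 1295 and 1405 in rapamycin (1.73 ± 0.13, adjusted p = 7.92e-09), Ahnak2 94.4, 101 and 112 in DMSO and 441, 355 and 284 in rapamycin (1.65 ± 0.20), and the dynein heavy chain Dync1h1 372, 340.1 and 369 in DMSO and 1494, 1063 and 927 in rapamycin (1.62 ± 0.14). Tcp11l2 changed by 1.66 ± 0.11. The 2 largest rises, of Neat1 (3.38 ± 0.23) and Malat1 (2.89 ± 0.34), did belong to a list, that of nuclear noncoding RNAs. Of its 11 tested genes 6 rose and none fell (median 0.40). The probe sets of Neat1 and Malat1 disagreed, with ranges of -0.04 to 3.38 and -1.21 to 2.89. Of the falls at least 2-fold, 226 of 503 were of genes in no list, and of the rises at least 2-fold 191 of 265. Shcbp1, a spindle-associated signalling adaptor, was among them (1562, 1819 and 1658 in DMSO and 222, 246 and 228 in rapamycin, -2.77 ± 0.09).

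Gene length was set beside the direction of change, from the genomic span in RefSeq's table. The genes were split into 5 equal bands by span. In the longest band (median 116 kb) 25.7% were called higher and 7.88% lower, and in the shortest (median 4.07 kb) 16.4% and 14.4%. The median span was 19.5 kb for genes that fell at least 2-fold, 18.2 kb for smaller falls, 22.1 kb for genes not called, 29.0 kb for rises under 2-fold and 19.1 kb for larger rises. Signal differed between these bands too, with median DMSO signals of 244 in the longest and 182 in the shortest, and its part in the shares was not tested.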

How the data were processed

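RNA of 9 samples was hybridised to Affymetrix Mouse 430 2.0 arrays, 3 per group. The deposited values are linear intensities per probe set, and the authors used GCOS 1.4 (per the submitters' processing notes). Not given in the sources used here are its summary algorithm, settings and annotation build. The trimmed mean was 250 on each array, as computed here, and the 75th percentiles differed by 0.169 (log2), under a limit of 0.2, so the values were kept as deposited. Precision is limited by the number of arrays.

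Of 45101 probe sets, 64 were controls, 34945 had 1 gene symbol, 932 several and 9160 none. Values were taken as log2(signal + 16). Probe sets with 1 symbol whose mean passed the 40th percentile, equal to a signal of 22.2, were kept, and each gene was read from its brightest probe set. Limma 3.58.1 in R 4.3.3 (lmFit, eBayes with a trend) was fitted to all 9 arrays, and rapamycin was compared with DMSO in the sensitive cells, with Benjamini-Hochberg adjustment over 12715 genes. The fit was tested on simulated data. Promoters are RefSeq's (GRCm38.p6).

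The genes and lists were chosen with earlier results of these data known, so the lists were counted and not tested. Genes to name were drawn up by rule. Among called genes with separated groups and a signal at or above the median, these were the 15 that rose most and the 15 that fell most. Added were up to 5 called members of each list in its main direction and up to 3 in the other, and a set of mTOR and cell cycle genes whatever their result. The rule gave 506 genes, and only a part of them is described. Left out are, for example, the falls of Lrr1 (-3.47), Cdc6 (-3.15) and Ska1 (-3.14) and the rises of Crebrf (1.88) and Thbs1 (1.68). Cell type markers, Asns and single members not called (Orc5, Top1, Mad1l1, Cenpb, Ccnd2 and Ccnd3) were named after their values were seen. The alternatives were 2 other scalings, 2 other added constants, 2 other filters, the mean of probe sets, the 6 sensitive arrays alone, no trend, the array number as a block, and each array left out.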

Additional observations from a re-analysis of the deposited data

How the results depend on the processing

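Over all alternatives 2158 to 2678 genes were called higher and 1682 to 2143 lower. Centring the arrays on their 75th percentile gave 2181 and 2033, so that 51.8% of calls were higher against 57.3%. Genes called under both settings kept their direction, except 5 of 3530 with the mean of probe sets and 2 of 4009 with the 6 sensitive arrays alone. With the array number as a block, 2505 genes were called higher and 1877 lower. Same-numbered arrays correlated at -0.02, -0.04 and -0.08 in their deviations from the group means, so no shared effect of the array number was seen. These values cannot exclude that same-numbered arrays were handled together, and no label states it. With 64 added to the signal, 122 genes rose at least 2-fold in place of 265.

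Counts in a few lists moved by more than 1.5 times, and the cause was not tested. Centring gave 1 rise of cytosolic ribosomal protein genes, 10 of oxidative phosphorylation and 7 of cholesterol genes, and 5 falls of mitochondrial aminoacyl-tRNA synthetases. Quantile normalization gave 5 ribosomal protein rises and 6 falls of those synthetases. Without the trend 1 ribosomal protein, 7 cholesterol and 3 fatty acid and triglyceride synthesis genes rose. With the mean of probe sets 6 ribosomal protein and 2 circadian genes rose. Leaving out 1 array in turn gave 11 to 17 rises of oxidative phosphorylation, 7 to 10 of cholesterol and 3 to 5 of fatty acid and triglyceride synthesis genes, and 5 to 11 falls of ER chaperones.

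Genes of low signal were seldom called, so a missing call there is no evidence of an unchanged transcript. Probe sets of 49 genes were called in both directions, among 5937 genes with more than 1 tested.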

Other observations

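Some of the response lay in probe sets without a single gene symbol. Of 3849 such probe sets bright enough to test, 394 were higher and 248 lower in rapamycin in the limma fit, 116 and 68 of them at least 2-fold. Probe set 1456674_at changed from a mean signal of 170 in DMSO to 10.3 in rapamycin, which lies below the filter limit, so no size of change is given. Probe set 1438009_at changed from 12928 to 3843 (-1.74 ± 0.10, log2 of signal + 16). In the other direction, 1455160_at changed from 113 to 413 (1.77 ± 0.23). These 3 were chosen after their values were seen, and the value after ± is the standard error (n = 3 arrays per group).

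Probe sets of one gene did not always move alike. Of 2642 called genes with more than 1 tested probe set, 1956 had all their probe sets changed with the same sign. Those of Masp1 ranged from -0.64 to 1.63 and those of Igf1r from -0.06 to 1.17.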
